A study of Mus musculus with 14 samples.

Results

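The mRNA levels of 8 well-known target genes of the tumor suppressor p53 were examined in organoids grown from mouse tumors of the small intestine, which the labels name APT, after induction of hairpin RNAs against Suv4-20h2. Suv4-20h2, under the symbol Kmt5c, is a histone methyltransferase of compact heterochromatin, and the comparison asked whether a damage response accompanied the hairpins. The members were chosen by name: Cdkn1a, Mdm2, Ccng1, Trp53inp1, Bax, Bbc3, Zmat3 and Phlda3. All 8 were found among the 55424 genes listed in either set of libraries, and all 8 passed the filter on low counts in both sets. In set 1, hairpin 1 against exon 4 (3 libraries) was compared with control 1 (3 libraries). In set 2, hairpin 2 against exon 9 (4 libraries) was compared with control 2 (4 libraries). Every organoid, controls included, carried a doxycycline-inducible hairpin and was kept for 4 days in 0.5 µg/ml doxycycline. The control hairpins are titled shCtrl, and each targeting hairpin is represented by what the labels call 1 clone. The alleles behind the name APT, the state of the Trp53 gene among them, are not given in the labels used here, and nothing there says that replicates came from separate cultures. What the p-values weigh is therefore library-to-library spread, part of which may be technical. Hairpin and set are confounded, and no control library is shared.

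The genes lie (GRCm38, GENCODE M21) at chr17:29090976-29100727 for Cdkn1a, chr10:117688875-117710758 for Mdm2, chr11:40748552-40755311 for Ccng1 and chr4:11156431-11174379 for Trp53inp1. Bax lies at chr7:45461697-45466898, Bbc3 at chr7:16308393-16318205, Zmat3 at chr3:32334792-32366014 and Phlda3 at chr1:135766119-135769136.

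The p53 protein is a transcription factor that is kept scarce by the ubiquitin ligase MDM2 and accumulates when DNA damage kinases release it from that ligase. It binds paired copies of a short motif near its target genes and raises their transcription, which can halt the cell cycle, start apoptosis or restrain survival signalling. Its target Mdm2 closes a negative feedback loop. In the intestine the pathway is best known for crypt cell death and arrest after irradiation. Several of its targets, Cdkn1a and Bbc3 among them, are also controlled by other factors, and Cdkn1a is known to be high in differentiating epithelium.

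Promoter sequence was examined because p53 binding letters can lie close to a start site. RefSeq promoter windows (GRCm38.p6, 250 bases before to 50 after a start) were found for 6 of the 8 members, as 9 windows, and none was found for Trp53inp1 or Zmat3. The half-site of the p53 response element, a motif of 10 bases that reads the same on both strands, was present in 4 of these 9 windows, belonging to Cdkn1a, Mdm2, Ccng1 and Bax. It was present in 8.4% of all 32851 windows in the table. A site of 20 bases, made of 2 adjoining half-sites with at most 1 mismatch, was present in windows of Cdkn1a and Ccng1, against 0.088% of all windows. Both are shown with those 20 bases in capitals, and the Mdm2 and Bax stretches with their 10-base half-site in capitals, all 5′ to 3′ on the gene's own strand.
Cdkn1a: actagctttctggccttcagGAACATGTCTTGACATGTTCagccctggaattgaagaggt
Ccng1: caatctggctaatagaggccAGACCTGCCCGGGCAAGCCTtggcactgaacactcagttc
Mdm2: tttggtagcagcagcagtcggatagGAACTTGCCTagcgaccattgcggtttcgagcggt
Bax: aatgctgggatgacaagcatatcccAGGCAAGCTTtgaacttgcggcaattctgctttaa
The stretches lie at chr17:29090908-29090967 (plus strand), chr11:40755442-40755501 (minus strand), chr10:117710910-117710969 (minus strand) and chr7:45467065-45467124 (minus strand). The capitals of Cdkn1a begin at position -51 from the upstream start of that gene, and those of Ccng1 at position -195. These are matches of letters and not measured binding, and the windows of Bbc3 and Phlda3 held no half-site.

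Total counts ran from 9272134 to 26284079 per library, and the members' counts from 93 for Phlda3 in control 1 replicate 2 to 8384 for Cdkn1a in control 2 replicate 3. Kmt5c was lower in every hairpin library than in any control library of its set, as were 6.34% of genes in set 1 and 8.42% in set 2. It passed the edgeR test in neither set (log2 fold change -0.31, adjusted p = 0.801, and -0.20, adjusted p = 0.0977). With the replicate number as a block it passed in set 2 (edgeR adjusted p = 0.00741), where 20.4% of all genes did. Its extent of depletion at the protein level was not analysed here. Hairpin 1 replicate 1 stood apart in set 1, and both replicate 4 libraries stood apart in set 2, as described beside the results they touch. Levels are given as CPM, the count per 1000000 counts of the library total after scaling with edgeR's TMM factors. Of 14 markers of small-intestinal enterocytes, Fabp1 and Apoa4 were at 0 in all set 1 libraries, while the list summed to 626 to 1127 CPM there. In control 1, Fabp2, Alpi, Sis, Lct and Apoa1 had means of 0.94, 0.62, 0.41, 0.079 and 0.079 CPM. Highest of the list there were Vil1, Hnf4a, Cdx2 and Mgam, at means of 337.4, 317.5, 176.3 and 168.0 CPM. In bulk RNA, fewer cells of a type and less RNA per cell cannot be told apart.

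Trp53 itself, the gene of the p53 protein, was transcribed at a low level. It had 6.93, 8.74 and 16.1 CPM in control 1 and 7.59, 12.6 and 19.03 CPM in hairpin 1. In set 2 it had 6.22, 5.36, 6.03 and 6.98 CPM in control 2 and 4.90, 5.41, 4.00 and 5.65 CPM in hairpin 2. Its log2 fold change was 0.30 for hairpin 1 (SE 0.463, edgeR adjusted p = 0.908) and -0.29 for hairpin 2 (SE 0.14, adjusted p = 0.285). Mdm4, the partner of MDM2 that also inhibits p53, was at -0.15 (adjusted p = 0.924) and -0.038 (adjusted p = 0.919).

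All 8 targets were transcribed in every library. On a scale that allows genes to be set against each other, CPM per kilobase of merged exons, Bax led in control 1 with 32.6 ± 2.97, followed by Cdkn1a with 19.3 ± 5.98 (SD, n = 3), and their ranges did not overlap. Ccng1 (9.46 ± 2.65), Mdm2 (9.05 ± 2.63), Bbc3 (5.96 ± 2.55) and Phlda3 (4.58 ± 1.79) came next, and each overlapped its neighbour in this order. Trp53inp1 (2.55 ± 0.475) and Zmat3 (1.98 ± 0.319) were lowest. In control 2 the order was led by Cdkn1a with 78.96 ± 12.98, then Phlda3 with 43.1 ± 6.80 and Bax with 41.0 ± 2.41 CPM per kilobase (SD, n = 4), the last pair overlapping. Mdm2 (18.7 ± 1.38) and Bbc3 (17.3 ± 2.12) overlapped in the middle, and Zmat3 (5.80 ± 0.297), Ccng1 (5.66 ± 0.459) and Trp53inp1 (5.13 ± 0.512) overlapped at the bottom. The sets were normalized separately and were not set against each other by any test, since set and hairpin are confounded.

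**Figure D1:**
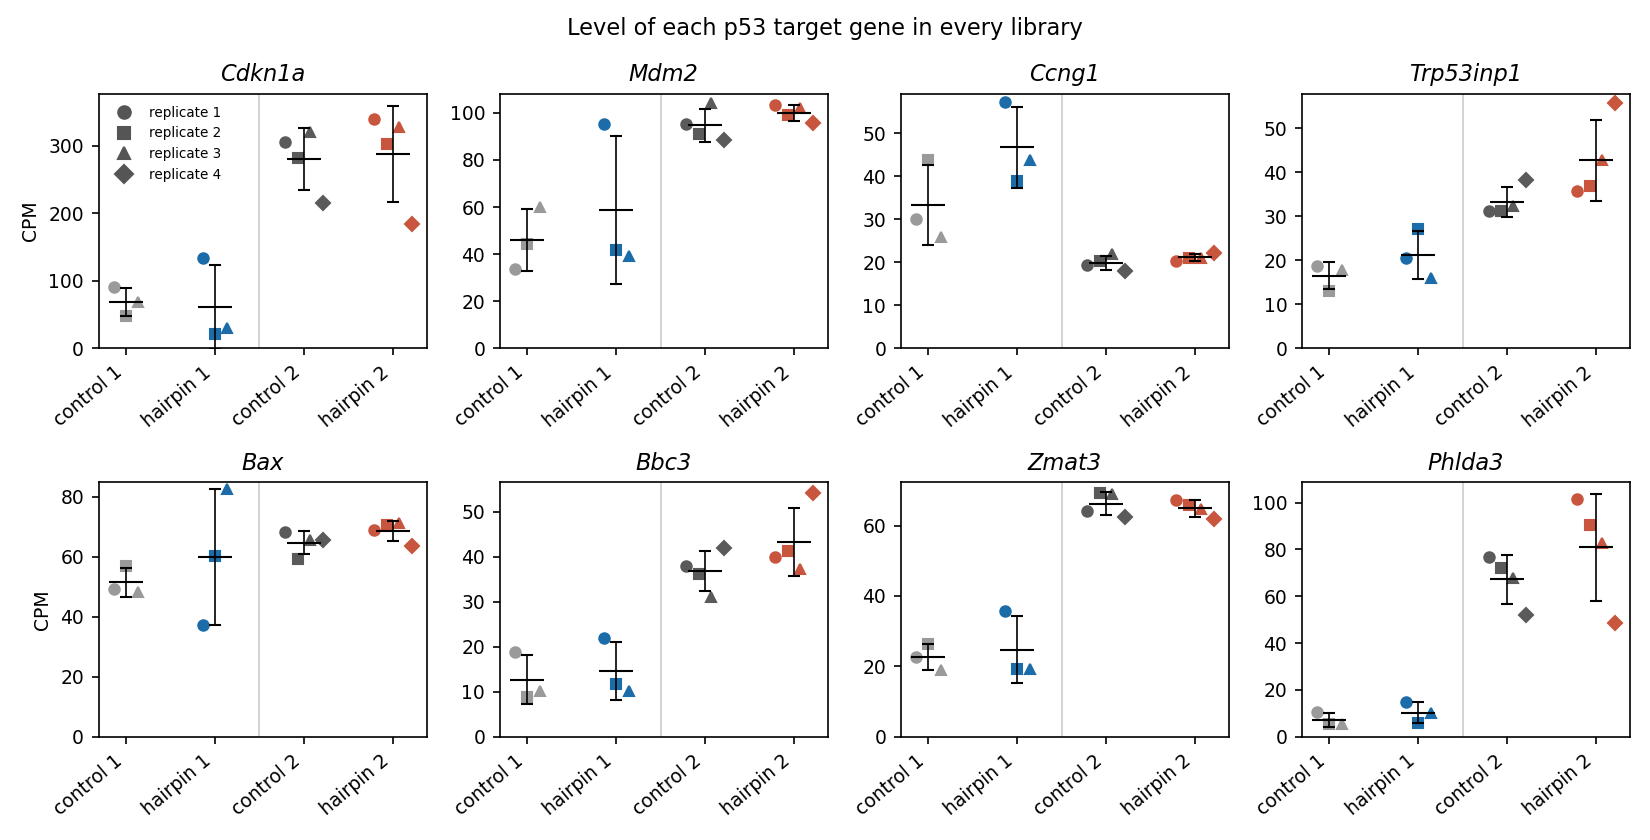
CPM of the 8 genes in every library by group, with 1 point per library, its shape giving the replicate number, and a bar for the mean with its SD. Control and hairpin libraries overlap in all 16 pairs of groups drawn, and hairpin 1 replicate 1 holds the highest Cdkn1a, Mdm2, Ccng1, Bbc3, Zmat3 and Phlda3 values of set 1.

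No p53 target passed the edgeR quasi-likelihood test for either hairpin. For hairpin 1 the count was 0 of 8, where 0.0% of 13540 genes were called. For hairpin 2 it was 0 of 8, where 6.05% of 14126 genes were called, 2.04% as higher and 4.01% as lower. At an unadjusted p under 0.05 the counts were 0 of 8 for hairpin 1, against 5.41% of all genes, and 1 of 8 for hairpin 2, Trp53inp1, against 19.8%. DESeq2 called 0 of 8 in both sets (0.162% and 9.53% of all genes), as did an edgeR model of all 14 libraries (1.24% and 0.798%). Voom with quality weights called 0 of 8 for hairpin 1 (0.0591% of all genes) and, for hairpin 2, Trp53inp1 and Phlda3 as higher (17.5% of all genes, 8.16% as higher). The groups overlapped for all 8 genes in both sets, while 6.5% of genes in set 1 and 6.88% in set 2 had every hairpin library above every control library, and 6.34% and 8.42% had every one below. Most members were nonetheless above 0, 7 of 8 in each set, against 52.5% of genes for hairpin 1 and 51.1% for hairpin 2. The median log2 fold change of the 8 was 0.29 for hairpin 1 (0.027 over all genes tested) and 0.085 for hairpin 2 (0.0050 over all). Without hairpin 1 replicate 1 the first of these medians was -0.011. Mdm2 (-0.19), Bbc3 (-0.21) and Zmat3 (-0.24) then turned below 0, where Cdkn1a already was, so the 7 of 8 for hairpin 1 depended on that library.

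**Figure D2:**
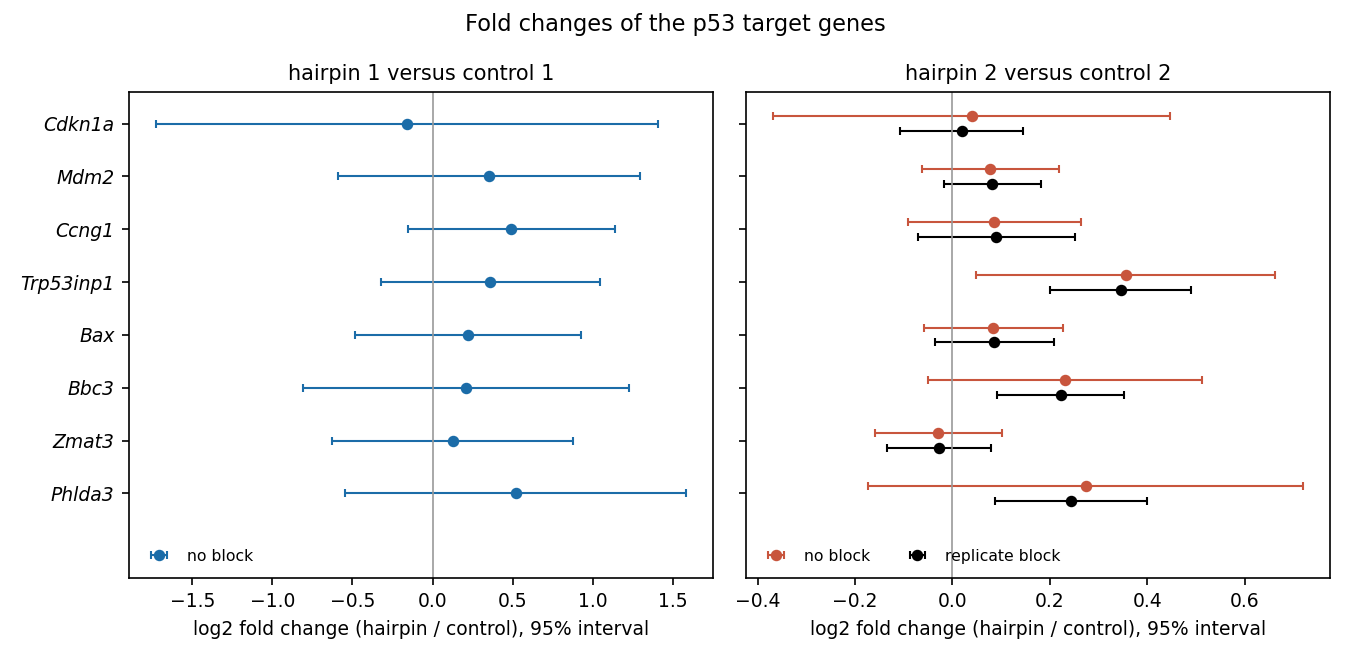
Log2 fold changes of the 8 genes (x axis) with 95% intervals, hairpin 1 on the left and hairpin 2 on the right, on axes of different width. Hairpin 2 is drawn without and with the replicate number as a block, and only Trp53inp1, Bbc3 and Phlda3 have blocked intervals above 0.

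Cdkn1a encodes p21, the inhibitor of cyclin-dependent kinases that carries out arrest by p53. Its values were 90.2, 47.8 and 67.9 CPM in control 1 and 133, 21.6 and 29.3 CPM in hairpin 1. Hairpin 1 replicate 1 was thus above all controls and the other two were below all of them. Its log2 fold change was -0.16 (SE 0.668, edgeR adjusted p = 0.963), with a 95% interval of the fold from 0.302 to 2.65. Without hairpin 1 replicate 1 it was -1.43 (SE 0.282, adjusted p = 0.0849). In set 2, Cdkn1a had 305, 281, 320.1 and 216 CPM in control 2 and 339, 303, 327 and 184 CPM in hairpin 2. Replicate 4 was lowest in both groups, and the groups overlapped. Here the log2 fold change was 0.039 (SE 0.183, adjusted p = 0.942), and the interval of the fold ran from 0.774 to 1.36. Cdkn1a shares 273 exon bases with AC167363.2, a gene model on the opposite strand, and the strand setting of the counting is not known here.

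Mdm2, the ligase gene of the feedback loop, had 33.6, 44.2 and 60.1 CPM in control 1 and 95.2, 41.6 and 39.4 CPM in hairpin 1. Only hairpin 1 replicate 1 lay above the control range. The effect was 0.35 on the log2 scale (SE 0.401, edgeR adjusted p = 0.868) and -0.19 without that library. Control 2 libraries held 95.3, 91.3, 104 and 88.3 CPM of it and hairpin 2 libraries 103, 99.3, 102 and 95.6 CPM, a narrow spread in which the groups overlapped. The log2 fold change of 0.078 (SE 0.063, adjusted p = 0.564) had an interval of the fold from 0.957 to 1.16.

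Ccng1 encodes cyclin G1, which recruits a phosphatase to MDM2. It had 29.97, 43.7 and 26.0 CPM in control 1 and 57.3, 39.0 and 43.9 CPM in hairpin 1. Every hairpin library was above 2 of the 3 controls, but control 1 replicate 2 lay within the hairpin range. Its log2 fold change was 0.49 (SE 0.275, edgeR adjusted p = 0.801), 0.32 without hairpin 1 replicate 1 and 0.74 without control 1 replicate 2. In control 2 it had 19.4, 20.2, 21.8 and 17.97 CPM, and in hairpin 2 20.3, 21.03, 21.1 and 22.1 CPM. These overlapped, at a log2 fold change of 0.086 (SE 0.079, edgeR adjusted p = 0.620) and a fold interval of 0.939 to 1.20.

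Bax encodes the pore-forming executor of mitochondrial apoptosis. It had 49.2, 56.7 and 48.1 CPM in control 1 and 37.1, 60.2 and 82.4 CPM in hairpin 1, the first of these being below every control. Its log2 fold change was 0.22 (SE 0.300, edgeR adjusted p = 0.894). In set 2 the values were 68.1, 59.2, 65.6 and 65.7 CPM against 68.9, 70.5, 71.1 and 63.5 CPM. Of the 4 hairpin 2 libraries, 3 were above all controls and replicate 4 was not (0.084, SE 0.064, adjusted p = 0.534, fold interval 0.960 to 1.17). Bax shares 192 exon bases with Gm45808, a gene model on the same strand, so its count is uncertain.

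Bbc3 encodes PUMA, a BH3-only protein that frees BAX to act. It had 18.9, 8.85 and 10.2 CPM in control 1 and 22.0, 11.8 and 10.1 CPM in hairpin 1, with replicate 1 highest in both groups. On the log2 scale the change was 0.21 (SE 0.434, edgeR adjusted p = 0.931). In set 2 it had 37.8, 36.1, 31.1 and 42.0 CPM in control 2 and 39.95, 41.3, 37.2 and 54.2 CPM in hairpin 2. Each hairpin 2 library was above the control 2 library of the same replicate number, and replicate 4 was highest in both groups. The log2 fold change was 0.23 (SE 0.126, adjusted p = 0.355).

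Trp53inp1 encodes a stress protein of the nucleus and autophagosome that favours p53-dependent death. It had 18.7, 12.99 and 17.9 CPM in control 1 and 20.6, 27.0 and 16.1 CPM in hairpin 1 (0.36, SE 0.292, edgeR adjusted p = 0.825). It was 0.15 without hairpin 1 replicate 2 and 0.56 without hairpin 1 replicate 3. Of the hairpin 1 libraries, 2 lay above all controls. In set 2 it had 31.2, 31.3, 32.3 and 38.15 CPM in control 2 and 35.7, 36.9, 42.8 and 55.8 CPM in hairpin 2. All hairpin 2 libraries were above 3 of the 4 controls, and control 2 replicate 4 exceeded the lowest of them. This gave a log2 fold change of 0.36 (SE 0.138), with an unadjusted p of 0.0273, an edgeR adjusted p of 0.182 and a fold interval from 1.03 to 1.58.

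Phlda3 encodes a pleckstrin-homology protein that competes with the survival kinase AKT for membrane lipids. It had 10.4, 5.49 and 5.56 CPM in control 1 and 14.7, 5.78 and 10.2 CPM in hairpin 1, with replicate 1 highest in both groups (0.52, SE 0.454, edgeR adjusted p = 0.835). Without hairpin 1 replicate 1 it was 0.16, and without control 1 replicate 1 it was 0.92. In set 2 it had 76.6, 71.9, 67.9 and 52.2 CPM in control 2 and 102, 90.5, 82.7 and 48.4 CPM in hairpin 2. Replicates 1 to 3 of hairpin 2 were above every control, and replicate 4 was the lowest library of set 2. The log2 fold change was 0.27 (SE 0.201, edgeR adjusted p = 0.513), and 0.46 without that lowest library, when Phlda3 passed (adjusted p = 0.0373). It passed in only 1 of the 8 fits that each left out 1 library of set 2. Calls over all genes also rose in that fit, as given further below.

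Zmat3 encodes an RNA-binding zinc finger protein that acts on splicing and mRNA stability downstream of p53. It had 22.6, 26.3 and 19.03 CPM in control 1 and 35.8, 19.2 and 19.2 CPM in hairpin 1 (0.13, SE 0.320, edgeR adjusted p = 0.944). Apart from the high first library, the hairpin values were within the control range. In set 2 the values were 64.2, 69.4, 68.9 and 62.6 CPM against 67.4, 65.7, 64.7 and 61.9 CPM. It was the member with the narrowest fold interval, 0.895 to 1.07 (log2 fold change -0.029, SE 0.059, adjusted p = 0.844).

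**Figure D3:**
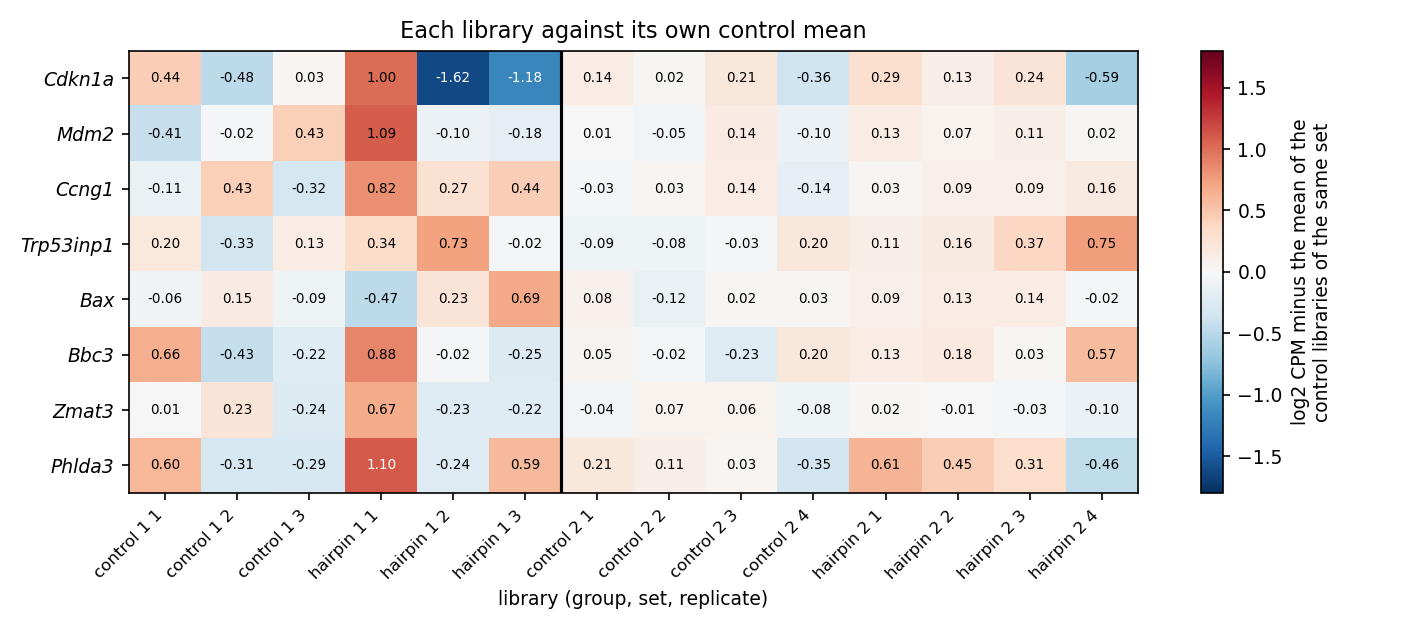
Log2 CPM of each gene (rows) in each library (columns) minus the mean of the control libraries of its set, with red above and blue below. Hairpin 1 replicate 1 is above 0 for 7 of 8 genes with a median of 0.85, while the other hairpin 1 libraries have medians of -0.062 and -0.10.

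Hairpin 1 replicate 1 lay farthest from the control mean of set 1. Its median deviation from the control mean was 0.85 on the log2 scale, with Phlda3 at 1.104, Mdm2 at 1.09 and Cdkn1a at 1.00, and Bax at -0.47 as the exception. In the same library the summed level of enterocyte markers was 626 CPM, against 956 to 1127 CPM in the other set 1 libraries. The markers of this list did not all go down. The lowest hairpin 1 values of Hnf4a, Mgam and Slc5a1 were 57.45, 16.89 and 1.67 CPM. Their control 1 minima were 267.5, 134.6 and 41.87 CPM. Vil1 and Fabp2 were higher in every hairpin 1 library than in any control 1 library. Krt20 had a log2 fold change of 2.11 (SE 1.17) for hairpin 1, and -0.11 without hairpin 1 replicate 1. Goblet and Paneth cell markers summed to 182.5 CPM in hairpin 1 replicate 1, against 1671 to 3846 CPM in the other set 1 libraries. The summed level of 9 immune and endothelial markers was 105 CPM, against 7.16 to 42.4 CPM in the others, and Cd3e, Adgre1 and Kdr were at 0 in all control 1 libraries. Mesenchymal markers summed to 87.8 to 255 CPM in control 1 and 42.8 to 146 CPM in hairpin 1, with Dcn and Lum at 0. The part of these differences in the p53 target values was not tested.

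In set 2, libraries with equal replicate numbers deviated together, though replicates 1 to 3 also did so across numbers (correlations of 0.261 to 0.393). With the replicate number as a block, 3 of 8 targets passed as higher. These were Trp53inp1 (0.35, SE 0.067, edgeR adjusted p = 0.00357), Bbc3 (0.22, SE 0.060, adjusted p = 0.0216) and Phlda3 (0.24, SE 0.072, adjusted p = 0.0318). Their folds were 1.27, 1.17 and 1.18. In that fit 10.2% of all genes passed as higher and 20.4% in either direction. Cdkn1a (0.019, adjusted p = 0.862), Mdm2 (0.082, adjusted p = 0.237), Ccng1 (0.090, adjusted p = 0.433), Bax (0.086, adjusted p = 0.314) and Zmat3 (-0.028, adjusted p = 0.738) did not pass.

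Trp53inp1 and Bbc3 were higher in hairpin 2 in 4 of 4 pairs of equal number, a pattern that 20.5% of all genes showed. For Trp53inp1 the 4 differences were 0.19, 0.24, 0.40 and 0.54 on the log2 scale, and for Bbc3 0.077, 0.19, 0.25 and 0.36. For Phlda3 they were 0.41, 0.33 and 0.28 in replicates 1 to 3 and -0.11 in replicate 4. Cdkn1a had the same sign pattern, with 0.15, 0.11, 0.030 and -0.23.

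**Figure D4:**
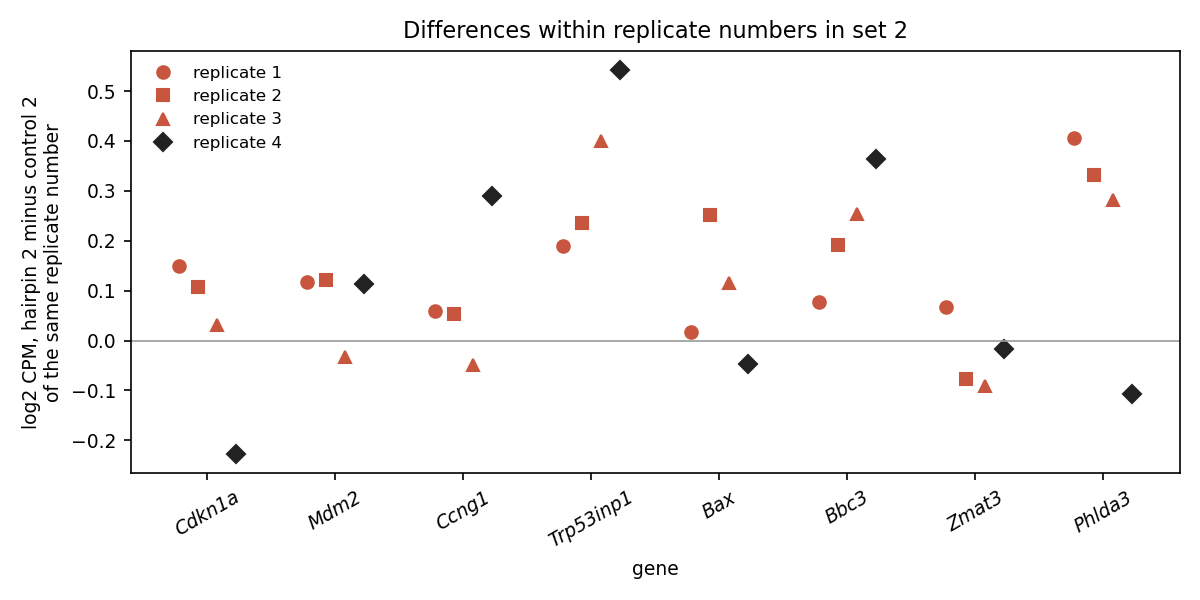
Difference in log2 CPM between hairpin 2 and control 2 libraries of equal replicate number (y axis) for each gene, with replicate 4 in black. Trp53inp1 and Bbc3 are above 0 in 4 of 4 pairs, and replicate 4 is highest there and lowest for Cdkn1a and Phlda3.

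The replicate 4 libraries differed from the others of set 2 in these genes in both groups, with less Cdkn1a and Phlda3 and more Trp53inp1 and Bbc3. Without them, an alternative that leaves 3 libraries a group, Phlda3 (0.36, SE 0.068, edgeR adjusted p = 0.00136) and Trp53inp1 (0.26, SE 0.069, adjusted p = 0.0137) passed as higher. Bbc3 (0.19, adjusted p = 0.0888) and Cdkn1a (0.094, SE 0.056, adjusted p = 0.277) did not. Of all genes, 16.9% passed there, 7.93% as higher. With the block as well, Phlda3, Trp53inp1 and Bbc3 passed, where 12.6% of all genes passed as higher. Sesn2 and Gdf15, stress genes that p53 and other factors control, were also highest in replicate 4. Sesn2 had 40.9 CPM in control 2 replicate 4 and 67.7 CPM in hairpin 2 replicate 4, against 15.8 to 16.9 CPM in the other 6 libraries. Whether the change in the members shares a source with these genes was not tested.

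Whether the hairpins acted differently was tested as the difference of their effects in a model of all 14 libraries. With edgeR 0 of the 8 targets passed, where 0.412% of 15043 genes did. At an unadjusted p under 0.05 the count was also 0 of 8, against 12.0% of all genes. DESeq2 also called 0 (2.63% of all genes), and voom called Cdkn1a (8.02% of all genes). The difference, hairpin 2 minus hairpin 1, ranged from -0.42 for Ccng1 (SE 0.246, edgeR adjusted p = 0.535) to 0.20 for Cdkn1a (SE 0.682, adjusted p = 0.939). Without hairpin 1 replicate 1, the library with the highest Cdkn1a of set 1, Cdkn1a passed with a difference of 1.43 (edgeR adjusted p = 0.0307). This was 1 of 14 fits that each left out 1 library, and the sign turned in 3 of them. The share of all genes called in that fit is not given here. For Trp53inp1 the effects of the hairpins were 0.36 and 0.36, and their difference was -0.0082 with a 95% interval from -0.63 to 0.61.

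The 8 genes did not all vary together. After centring each set on its mean, the 28 pairwise Pearson correlations of log2 CPM over the 14 libraries ran from -0.72 (Bax with Cdkn1a) to 0.70 (Cdkn1a with Zmat3), with a median of 0.26. Without hairpin 1 replicate 1 the median was -0.12. Within the 8 libraries of set 2, Cdkn1a and Phlda3 correlated at 0.90 and Trp53inp1 and Bbc3 at 0.82, while Cdkn1a and Bbc3 correlated at -0.78. All these values share the libraries and, in set 2, the replicate 4 pair.

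Among 9396 genes compared in this way over the 14 libraries, the genes most like Cdkn1a were the hexokinase gene Hk1 (r = 0.985) and Mboat2 (r = 0.983), and without hairpin 1 replicate 1 these were 0.979 and 0.974. Over all the genes named here as most alike, r ran from 0.853 to 0.979 without that library and from 0.539 to 0.971 within set 2, where Bax with Dnajc19 (0.539), Mdm2 with Mafk (0.552) and Bax with Mrpl34 (0.583) were lowest. Over the 14 libraries, Mdm2 was most like Mafk (0.963) and Iffo2 (0.95), Ccng1 most like Ammecr1 (0.960) and Ipo9 (0.952), and Zmat3 most like Tcf20 (0.973) and Ehd4 (0.966). For Bax they were Mrpl34, of the mitochondrial ribosome (0.970), and Dnajc19 (0.956). Trp53inp1 was most like Creb3l2 (0.890) and Ankra2 (0.883), Bbc3 most like Klf11 (0.921) and P2rx4 (0.914), and Phlda3 most like Ppp1r11 (0.904) and the linker histone gene Hist1h1c (0.898). No member was among the 2 genes most like another member.

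The other p53 targets were counted next. Of 35 listed, 32 were tested for hairpin 1 and 33 for hairpin 2, and 0 passed edgeR in either set. For hairpin 2, DESeq2 called 1 and voom 2, all lower, and for hairpin 1 both called 0. At an unadjusted p under 0.05 there were 3 in each, where 5.41% and 19.8% of all genes were. Their medians were 0.15 (-0.12 without hairpin 1 replicate 1) and -0.062 on the log2 scale, with 19 of 32 and 13 of 33 above 0. In the blocked fit of set 2, where 10.2% of all genes passed as higher and 10.1% as lower, 2 passed as higher and 1 as lower. Rrm2b, for nucleotide supply in repair (0.26, edgeR adjusted p = 0.0180), and Gdf15, a secreted stress factor (0.64, adjusted p = 0.00544), were the higher ones. Perp, a p53 target of desmosomes, passed as lower (-0.22, adjusted p = 0.0107, against 0.05 without the block).

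Around p53 itself, 0 of 13 tested regulators passed edgeR for hairpin 1 and 0 of 12 for hairpin 2 (0.0% and 6.05% of all genes). At an unadjusted p under 0.05 there were 0 and 3, where 5.41% and 19.8% of all genes were. With the block, Rchy1, a ligase for p53 (0.20), Cdkn2a, the locus of ARF and p16 (0.20), and the deacetylase gene Sirt1 (0.28) passed as higher in set 2, and the kinase gene Hipk2 (-0.23) as lower. In that blocked fit 10.2% of all genes passed as higher and 20.4% in either direction. Of 21 damage signalling and repair genes, 1 fell with hairpin 2, where 4.01% of all genes were called lower. It was the scaffold gene Mdc1, which went from 90.7 ± 5.02 to 75.7 ± 2.66 CPM (SD, n = 4 each, log2 fold change -0.26, edgeR adjusted p = 0.0276). With the block, the histone gene H2afx also passed, as higher. The 21 genes had medians of 0.091 and 0.0080, and 0 passed for hairpin 1 (1 at an unadjusted p under 0.05).

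Genes that share a role with Cdkn1a, Bax or Bbc3 were also counted. The 6 other genes of cyclin-dependent kinase inhibitors had medians of 0.26 (0.085 without hairpin 1 replicate 1) and 0.19, with 0 called by edgeR in either set. At an unadjusted p under 0.05 there were 1 and 2, where 5.41% and 19.8% of all genes were. With the block, Cdkn1b (0.18) and Cdkn2a passed as higher in set 2, where 10.2% of all genes did. Of 12 other BCL2 family genes tested, Bik, a BH3-only gene, fell with hairpin 2 from 1.74 ± 0.462 to 0.325 ± 0.104 CPM (log2 fold change -2.42, edgeR adjusted p = 0.00156). Its counts were near the floor, 28 to 54 per library in control 2 and 3 to 10 in hairpin 2. The survival gene Bcl2 rose from 72.3 ± 2.02 to 84.8 ± 2.69 CPM (SD, n = 4 each, 0.23, adjusted p = 0.0274). For hairpin 1, 0 passed, also at an unadjusted p under 0.05. Among all genes tested for hairpin 2, edgeR called 2.04% higher and 4.01% lower. Of 13 cell cycle genes that p21 is known to restrain through the DREAM complex, 0 passed in either set with edgeR (0 and 1 at an unadjusted p under 0.05), with medians of 0.14 and -0.031. With the block, Ccnb1 passed as higher in set 2.

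**Figure D5:**
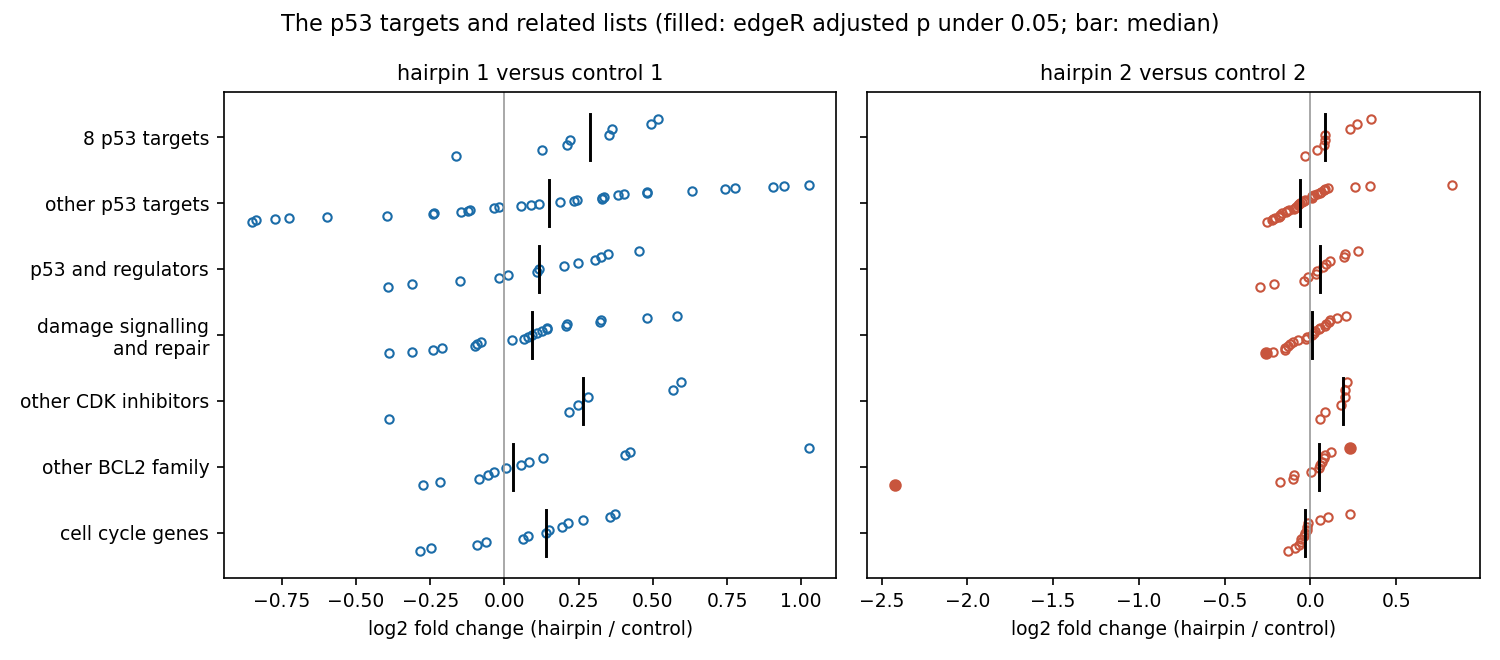
Log2 fold change (x axis) of each tested gene in the 8 targets and 6 related lists, hairpin 1 on the left and hairpin 2 on the right, on axes of different width. Filled points are past an edgeR adjusted p of 0.05, which only Mdc1, Bik and Bcl2 are, all for hairpin 2, and bars are medians.

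Markers of differentiation were also counted in set 2. Of all genes tested there, edgeR called 4.01% lower and 2.04% higher. The whole enterocyte list summed to 938 to 993 CPM in control 2 and 663 to 742 CPM in hairpin 2. Among the 8 enterocyte markers that could be tested, 5 were called lower in hairpin 2. The 5 were Krt20, Fabp2, Slc5a1, Hnf4a and Mgam, at -2.65, -3.59, -2.02, -1.04 and -0.90. Fabp2 had low counts, 60 to 105 per library in control 2 and 2 to 8 in hairpin 2. Of 9 goblet and Paneth cell markers, Clca1 fell (-0.55, edgeR adjusted p = 0.0451), and with the block 6 passed as lower and 1 as higher. In that blocked fit 20.4% of all genes passed in either direction and 10.2% as higher. Of 4 mesenchymal markers tested, Pdgfra rose (0.55, edgeR adjusted p = 0.00938) and Pdgfrb fell (-3.41, adjusted p = 0.00732). Pdgfrb had low counts, 20 to 60 per library in control 2 and 0 to 4 in hairpin 2. The mesenchymal list summed to 14.4 to 16.3 CPM in control 2 and 18.2 to 20.3 CPM in hairpin 2. The 3 immune and endothelial markers listed in set 2 summed to 12.0 to 20.8 CPM over its libraries. The part of these markers in the p53 target values was not tested.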

How the data were processed

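Stranded poly(A) libraries were made, per the labels' protocols. The authors deposited raw counts for each gene, with 1 file for each library and no normalization that the values show. Per the submitters' processing notes the tools were STAR, featureCounts, bcl2fastq 2.20, FastQC and DESeq2, on GRCm38. Further versions and the strand setting of the counting: not given in the sources used here. The tables hold 55421 genes in set 1, 17490 in set 2 and 17487 in both. Symbols, positions and merged exon lengths came from GENCODE M21 (GRCm38), which matched 55240 and 17471 genes. Promoter sequences came from RefSeq (GRCm38.p6).

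The quasi-likelihood test of edgeR 4.0.16 (R 4.3.3) was run within each set after filterByExpr and TMM scaling, with Benjamini-Hochberg adjustment over all genes tested and a threshold of 0.05. Standard errors were the log2 fold change divided by the root of F, and 95% intervals used the test's degrees of freedom. The test was tested on simulated data. CPM are counts over TMM-scaled totals, with the library totals limiting precision as given in the report. Pairs and correlations used log2 (CPM + 0.5), the correlations among genes averaging 5 CPM or more in both sets.

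The members and the lists, 11 in all, were chosen with earlier results of these data known. Named genes were the members, Kmt5c, Trp53, Mdm4, up to 6 called genes per other list, and the 2 genes most like each member. Genes named for the blocked fit, and Sesn2, were chosen after their values were seen. Trp53rk was matched to no gene.

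Deviations from group means correlated between libraries of equal number at 0.508, 0.369, 0.561 and 0.772 in set 2, each above the 0.1 required, and the numbers were taken to pair them. This rests on the data and not on the labels. The settings varied were total counts, DESeq2's size factors, no filter, DESeq2 1.42.0, voom with quality weights (limma 3.58.1), the block, a model of all 14 libraries, and leaving out libraries.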

Additional observations from a re-analysis of the deposited data

Results flagged for a closer look

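Trp53inp1 in control 2 replicate 4, at 38.15 CPM, lay far from the other control 2 libraries, which had 31.2, 31.3 and 32.3 CPM. Its gap to the nearest was 0.837 of the group's range, above Dixon's critical value for 4 samples. Of 16 groups examined this was 1, and chance flags about 1 in 20.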

How the results depend on the processing

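The count of p53 targets called stayed 0 of 8 for hairpin 1 under all alternatives run. For hairpin 2 it was 2 with voom, 3 with the replicate block, 2 without both replicate 4 libraries and 3 with the block and without them (a combination added after the data were seen), all higher, and 0 to 1 on leaving out single libraries, the 1 being Phlda3 without hairpin 2 replicate 4 (0.46, adjusted p = 0.0373). For the difference it was 1 with voom (Cdkn1a, 1.64, adjusted p = 0.0107) and 0 to 1 on leaving out single libraries (Cdkn1a without hairpin 1 replicate 1). Over all genes, hairpin 1 calls numbered 22 with DESeq2, 8 with voom, 187 with the model of all 14 libraries and 0 to 1 on leaving out single libraries. Hairpin 2 calls, 854 as designed, numbered 1346 with DESeq2, 2466 with voom, 2880 with the block, 120 with all 14 libraries, 2396 without both replicate 4 libraries, 3529 with the block and without them, and 453 to 1409 on leaving out single libraries (453 without control 2 replicate 2, 1409 without hairpin 2 replicate 4). The causes were not tested.

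With voom, Mdm2 (-0.026), Bbc3 (-0.23), Zmat3 (-0.18) and Phlda3 (-0.089) turned below 0 for hairpin 1, and the differences of Mdm2 (0.11), Zmat3 (0.17) and Phlda3 (0.44) turned above 0. On leaving out single libraries, signs turned for hairpin 1 in Cdkn1a (-1.43 to 0.24), Mdm2 (-0.19 to 0.62), Bax (-0.048 to 0.47), Bbc3 (-0.21 to 0.65) and Zmat3 (-0.24 to 0.32), and for hairpin 2 in Cdkn1a (-0.068 to 0.20). Differences ran from -0.43 to 0.16 for Bax, -0.41 to 0.41 for Bbc3, -0.20 to 1.43 for Cdkn1a, -0.52 to 0.22 for Mdm2, -0.64 to 0.063 for Phlda3, -0.17 to 0.20 for Trp53inp1 and -0.32 to 0.17 for Zmat3.

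In set 1 the replicate numbers did not pair the libraries (correlations of 0.291, -0.002 and 0.343), control 1 replicate 2 correlated better with hairpin 1 replicate 1 (0.043), and the block gave 0 calls. In set 2 every library correlated best with its own number except hairpin 2 replicate 2, at 0.369 with control 2 replicate 2 and 0.393 with control 2 replicate 1. Fold intervals in set 1 were wide, 0.302 to 2.65 for Cdkn1a, so folds within them are compatible with the data. The intervals are not limits of detection, and a true change outside them could also have gone uncalled at this depth and spread.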

Other observations

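Gdf15, which encodes a secreted stress factor under p53 and other control, had its highest value in the library that stood apart in each group of set 2 and in hairpin 1. It had 139 CPM in hairpin 1 replicate 1, where hairpin 1 replicates 2 and 3 had 27.3 and 42.5 CPM and control 1 ranged from 19.3 to 55.2 CPM. In control 2 replicate 4 it had 66.4 CPM and in hairpin 2 replicate 4 159.7 CPM. The other replicates had 25.4 to 29.0 CPM in control 2 and 34.3 to 36.1 CPM in hairpin 2, so that Gdf15 was higher in hairpin 2 in 4 of 4 pairs of equal number. Without the block its log2 fold change for hairpin 2 was 0.83 (SE 0.540, edgeR adjusted p = 0.451).

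Sesn2, the stress gene that was high beside it in replicate 4 of set 2, was not high in hairpin 1 replicate 1. It had 16.9, 13.5 and 9.43 CPM in hairpin 1, all below the 25.6, 19.5 and 26.9 CPM of control 1 (log2 fold change -0.85, SE 0.299, edgeR adjusted p = 0.801). Such a separation was shown by 6.34% of genes in set 1.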
